A study of Mus musculus with 4 samples.

Results

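The 40 genes described here encode glucose and lactate transporters, the enzymes of glycolysis and of the pentose phosphate pathway, and the proteins that carry pyruvate into mitochondria and commit it to oxidation. They were selected by symbol from the 24369 genes of the deposited files. No measured value served as a criterion, but the set was chosen with earlier results of these data known. All 40 were listed, and all 40 had an expected count of at least 10 in at least 2 libraries, where an expected count is the estimated number of fragments that came from a gene. Gene expression was measured by RNA-seq in CD4 T cells of the spleens of WT C57BL/6 mice, in 2 libraries for each of 2 groups. In both groups naïve CD4 T cells were activated with antibodies to CD3 and CD28 in the presence of human IL-2, with no polarizing cytokine, transduced on day 2, restimulated through CD3 on day 5 and sorted as GFP+ CD4 cells. The EV RV group received MSCV-IRES-eGFP, an empty retroviral vector that encodes GFP and no Tox, and its 2 libraries serve as the controls, while the Tox RV group received MSCV-Tox-IRES-eGFP. Tox is a DNA-binding protein of the HMG-box family, and in the Tox RV cells it was made from the retroviral vector on top of whatever the cells made themselves. The study describes its replicates as biological, with 2 individual mice behind each group, and the age and sex of the mice are not given in the sources used here. The question for these genes was whether their mRNA levels differed between cells with and without ectopic Tox.

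Resting T cells take up little glucose. After stimulation of the T cell receptor they raise glucose uptake and run glycolysis fast, and much of the pyruvate leaves the cell as lactate even where oxygen is present, a state known as aerobic glycolysis. Glucose is taken up by the transporters encoded by *Slc2a1* (GLUT1) and *Slc2a3* (GLUT3), is phosphorylated by hexokinases and is split into triose phosphates, which are converted to pyruvate with a gain of ATP and NADH. Pyruvate is either reduced to lactate and exported, or carried into mitochondria and oxidized by the pyruvate dehydrogenase complex. The pentose phosphate pathway branches off after hexokinase and gives NADPH and ribose. Myc and the hypoxia-inducible factor HIF-1 are well-known transcriptional activators of many of these genes.

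Because the hypoxia-response core is the best-known motif of glycolytic promoters, the RefSeq promoter sequences of the set (build GRCm38.p6) were searched for it over the 250 bases before each annotated start. The letters searched were ACGTG or GCGTG on either strand. A promoter was found for 38 of the 40 genes, in 55 windows, since some genes have several starts. The core was present in 42 of the 55 windows (76.4%), belonging to 34 genes. It was present in 38.6% of all 32851 windows of the table and in 53.9% of the 13372 windows of genes tested here. The windows of the set were also richer in GC, with a median of 61.2% against 52.4% for all windows and 59.2% for windows of tested genes. The E-box CACGTG, which holds the letters ACGTG on both strands and so counts as 2 matches of the core, was present in 5 windows (9.09%), against 6.02% of all windows and 7.93% of those of tested genes. The AP-1 letters TGANTCA were present in 1 window (1.82%), against 6.75% and 4.64%. Each share is a description of letters in a window and not of binding. The 4 sequences printed here were picked because they range from a promoter dense in the core to one without it, with capitals marking every match on either strand. *Ldha* (upstream start of the gene, plus strand, chr7:46845554-46845803) had 5 matches, 4 of which came from a pair of E-boxes. *Hk2* (minus strand, chr6:82774455-82774704) and *Pgk1* (plus strand, chrX:106186850-106187099) had 2 matches each. *Eno2* (minus strand, chr6:124769674-124769823) had 0 in its window, of which the 150 bases nearest to the start are printed.
*Ldha*: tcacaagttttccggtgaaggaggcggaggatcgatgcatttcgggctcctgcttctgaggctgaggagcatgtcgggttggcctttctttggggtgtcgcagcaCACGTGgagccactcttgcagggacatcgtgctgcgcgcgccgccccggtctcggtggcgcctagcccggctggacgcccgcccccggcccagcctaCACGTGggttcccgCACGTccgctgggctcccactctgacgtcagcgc
*Hk2*: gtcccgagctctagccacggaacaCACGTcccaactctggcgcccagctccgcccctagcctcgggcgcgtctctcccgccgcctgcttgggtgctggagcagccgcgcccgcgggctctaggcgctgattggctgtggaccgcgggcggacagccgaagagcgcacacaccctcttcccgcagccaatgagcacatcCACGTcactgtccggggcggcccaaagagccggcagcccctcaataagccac
*Pgk1*: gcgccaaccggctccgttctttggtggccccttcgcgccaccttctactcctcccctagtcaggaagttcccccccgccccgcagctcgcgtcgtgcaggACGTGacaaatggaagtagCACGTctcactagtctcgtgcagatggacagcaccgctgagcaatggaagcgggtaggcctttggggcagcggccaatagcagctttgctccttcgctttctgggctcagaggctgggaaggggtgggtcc
*Eno2*: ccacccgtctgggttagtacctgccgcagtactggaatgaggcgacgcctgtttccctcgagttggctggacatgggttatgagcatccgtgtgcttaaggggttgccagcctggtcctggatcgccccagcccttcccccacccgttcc

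The 4 libraries held between 46989997 and 74548723 expected counts. *Tox* itself was at 11.7 and 5.73 CPM (counts per 1000000, after TMM scaling) in the controls and 121 and 99.9 CPM with Tox RV, so the labels and the transgene went together. Markers of CD4 T cells summed to 2040 to 2770 TPM (a level per length, scaled to 1000000 transcripts per library), those of NK cells to 37.3 to 81.1, and those of CD8 T and myeloid cells to at most 4.98 TPM, with *Ncr1* at 0 and *Lyz2* at 0.05 TPM or less. EV RV replicate 1 stood apart from the other 3 libraries. It lay at -53.8 on a first principal component that held 58.0% of the variance, against 5.70 to 25.8 for the others, and *Rn45s*, a precursor of ribosomal RNA, made up 24.7% of its counts, against 7.14% to 12%. *Cd3e* was also highest there, at 285 TPM against 85.7 to 109. This did not hold for *Cd4*, at 218 TPM in EV RV replicate 1 and 174 TPM in EV RV replicate 2. With Tox RV *Cd4* was at 250 and 229 TPM. For this reason the log2 fold changes of most genes below are given with and without EV RV replicate 1. The part that its composition plays in the results was not tested. Of the marker lists, the summed level of the 4 erythroid genes differed between the groups. It was 7.89 and 6.56 TPM in the controls and 3.27 and 3.11 TPM with Tox RV. Only 2 of these 4 genes had enough counts to be tested. The fibroblast markers summed to 0.13 TPM or less in all libraries. The part of either list in the results was not tested. In bulk RNA, a smaller number of cells with a transcript and less of that transcript in each cell cannot be told apart.

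The glycolytic genes were among the most abundant transcripts of these cells. The 40 genes summed to 14088 and 15034 TPM in the controls and 15162 and 15658 TPM with Tox RV, which is 1.41% to 1.57% of all transcripts. On the TPM scale 6 genes had a mean above 1000 over the 4 libraries, and these held 80.7% of the sum. They were *Gapdh* (3709.7 TPM), *Aldoa* (2176), *Pgk1* (1765), *Pkm* (1715), *Ldha* (1441) and *Eno1* (1288), all enzymes of the trunk of glycolysis or of lactate formation. A further 7 genes were at 100 to 1000 TPM, 23 at 10 to 100, and *Pfkm* at 8.35 TPM. The 3 least abundant were *Pfkfb4* (1.85 TPM), *Pdk2* (0.910) and *Eno2* (0.835), whose counts in single libraries went down to 42. The most abundant was *Gapdh* and the highest single count was 198046, for *Pkm*.

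**Figure D1:**
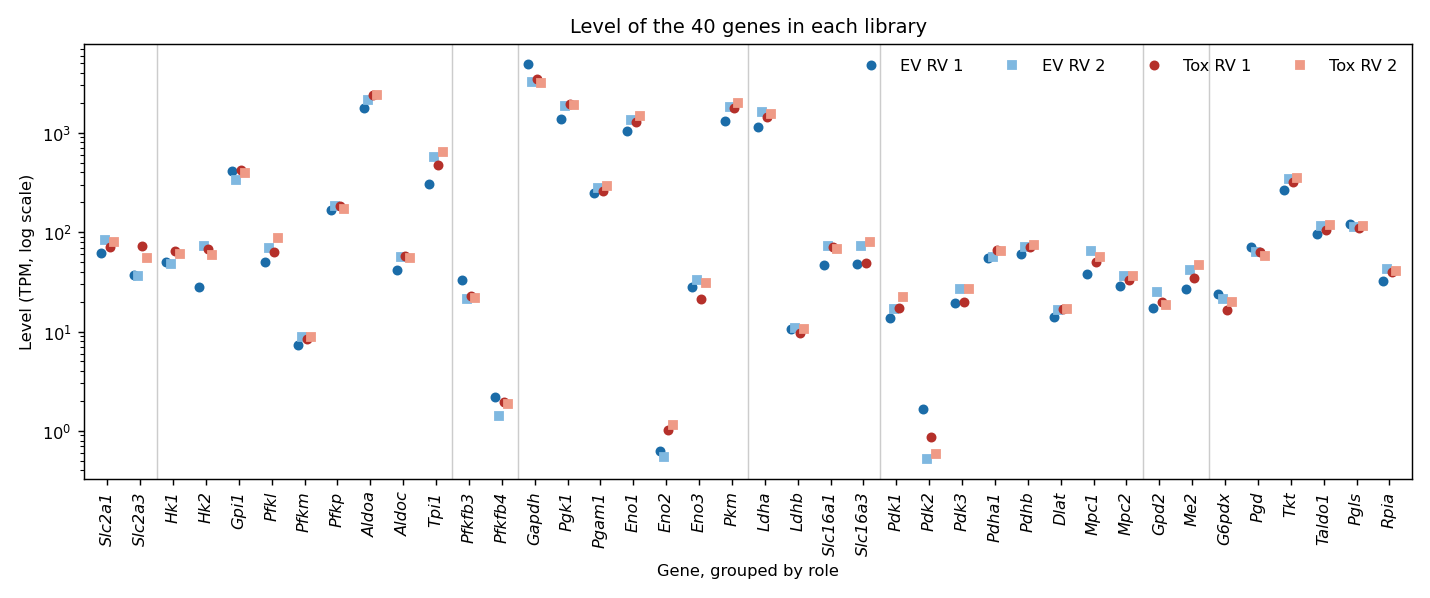
Level in TPM (log scale) of each of the 40 genes in each of the 4 libraries, with genes grouped by role and ordered along the pathway. 6 genes lie above 1000 TPM and 3 below 3 TPM, and for most genes the 4 libraries lie close together on this scale.

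None of the 40 genes passed the test of Tox RV against EV RV once p-values were adjusted over all tested genes. In edgeR's quasi-likelihood test 0 of 40 had an adjusted p-value below 0.05, where the share over all 14143 genes tested was 0.0%. The smallest adjusted p-value of the set was 0.897. That test did not call *Tox* itself either, at a log2 fold change of 3.675 and an adjusted p of 0.490. DESeq2 gave *Tox* an adjusted p of 3.79e-24. A count of 0 in the quasi-likelihood test therefore does not show that the genes were unchanged. At an adjusted p-value below 0.05, DESeq2 also called 0 of the 40 (0.156% of all genes), with a smallest adjusted p-value of 0.217 for *Slc2a3*. With limma on log2 TPM 0 were called, and 2 of the 40 had an unadjusted p-value below 0.05 (4.09% of all genes). At an unadjusted p-value below 0.05, the quasi-likelihood test gave 3 of the 40 genes, where the share of all genes was 3.62%. All 3 (*Slc2a3*, *Eno2* and *Hk1*) were higher in Tox RV and 0 were lower, against 1.07% of all genes higher and 2.55% lower. DESeq2 gave 1 gene at an unadjusted p-value below 0.05, *Slc2a3*, against 4.21% of all genes. No gene of the set had a fold change above 2 in either direction, compared with 3.38% of all genes. The 95% confidence interval of the fold change lay within a 2-fold change in either direction for 33 of the 40 genes, against 61.2% of all genes.

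**Figure D2:**
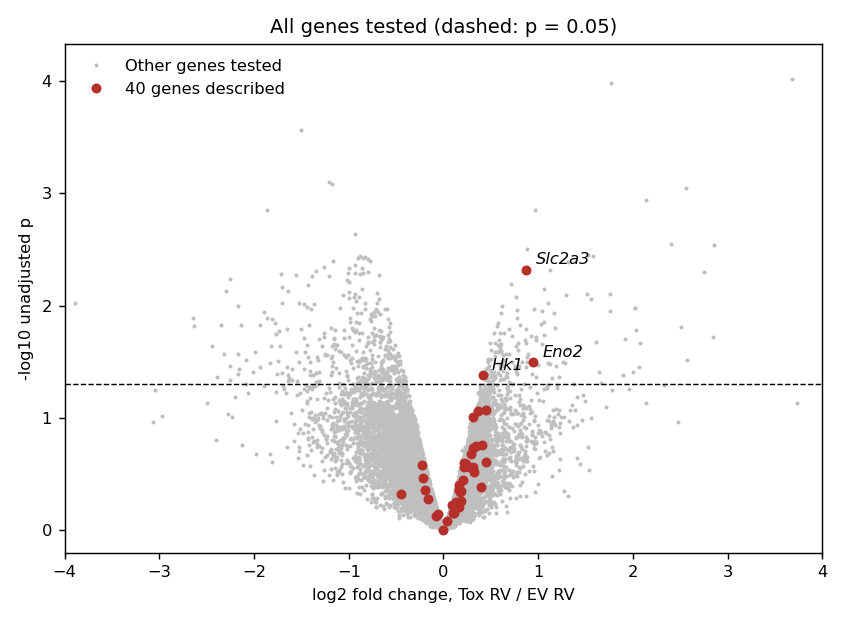
Each point is 1 of the 14143 genes tested, with the log2 fold change of Tox RV over EV RV on the x axis and -log10 of the unadjusted p-value of edgeR's quasi-likelihood test on the y axis (2 genes lie outside the x range). The 40 glycolysis, glucose uptake and pentose phosphate genes are in red, and *Slc2a3*, *Eno2* and *Hk1* are those above the dashed line, which marks the threshold of the unadjusted test.

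The set leaned towards higher values in Tox RV. This lean was smaller without EV RV replicate 1 and larger without EV RV replicate 2. In 32 of the 40 genes (80.0%) the log2 fold change was above 0, against 50.4% of all genes, and its median was 0.185 against 0.00361. The groups did not overlap, with Tox RV higher, in 12 genes (30.0%), compared with 18.6% of all genes, and with Tox RV lower in 1 gene, *G6pdx*, compared with 17.4%. In 29 genes (72.5%) EV RV replicate 1 was the lowest of the 4 libraries, where this held for 37.0% of all genes, and the highest in 6, compared with 37.0%. The median log2 difference of EV RV replicate 1 from EV RV replicate 2 was -0.34 over the set and 0.00483 over all genes. When EV RV replicate 1 was left out, 24 genes were above 0 (all genes 50.2%) and the median fell to 0.02. When EV RV replicate 2 was left out instead, 34 genes were above 0 (all genes 51.2%) and the median was 0.40. With 1 library left out at a time, 20 genes stayed above 0 throughout, *G6pdx* stayed below 0, and 19 changed sign, 12 of them only when EV RV replicate 1 was the library left out.

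**Figure D3:**
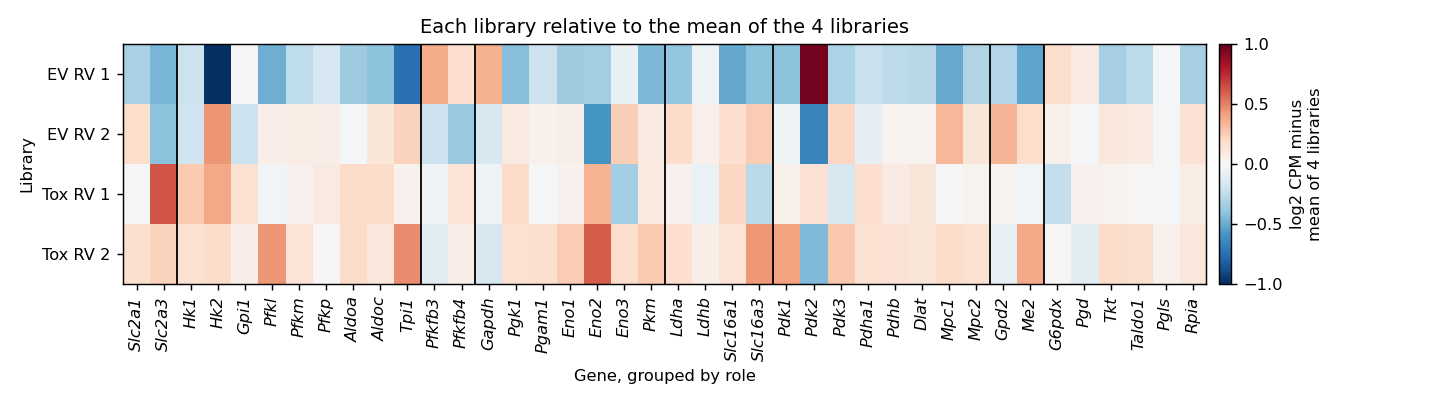
Each cell is the log2 CPM of a gene in 1 library minus the mean of the 4 libraries, with the colour scale ending at 1 in both directions. EV RV replicate 1 is blue (below the mean) across most of the 40 genes and red (above it) most clearly for *Pdk2*, *Pfkfb3* and *Gapdh*, while the other 3 libraries differ less from each other.

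**Figure D4:**
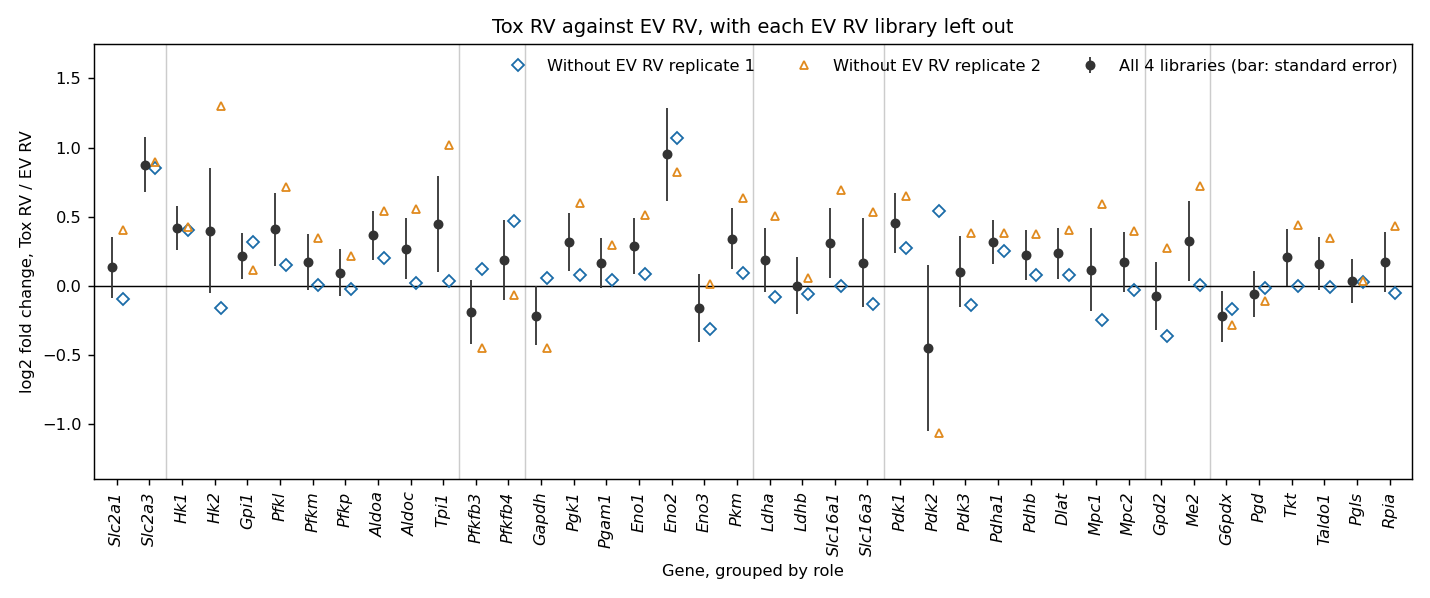
Log2 fold change of Tox RV over EV RV for each gene with its standard error (filled circles), and the same value without EV RV replicate 1 (open diamonds) and without EV RV replicate 2 (open triangles). The triangles lie above the diamonds for most genes, and for *Slc2a3*, *Hk1*, *Eno2* and *Pdha1* the 3 values lie close together and above 0.

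Glucose uptake held the gene with the smallest p-value of the set. *Slc2a3*, which encodes the high-affinity transporter GLUT3, was at 85.2 and 87.9 CPM in the controls and 181 and 137 CPM with Tox RV. Both Tox RV libraries were above both EV RV libraries, and the EV RV libraries were nearly level with each other. The log2 fold change was 0.88 ± 0.20 (standard error), or 1.83-fold, with a 95% interval of 0.39 to 1.36, an unadjusted p of 0.00479 and an adjusted p of 0.897 in edgeR's quasi-likelihood test. It was 0.85 without EV RV replicate 1 and ranged from 0.65 to 1.06 over the 4 fits that left out 1 library. *Slc2a1*, which encodes GLUT1, the main glucose transporter of activated T cells, was at 90.3 and 128 CPM in the controls and 112 and 127 CPM with Tox RV. Here the groups overlapped, with EV RV replicate 1 lowest and EV RV replicate 2 highest. The log2 fold change of *Slc2a1* was 0.13 ± 0.22 (interval -0.41 to 0.68), and -0.10 without EV RV replicate 1. On the per-length scale *Slc2a1* was the more abundant of the pair in EV RV, and the 2 were almost level in Tox RV replicate 1 at 71.3 and 72.6 TPM. In Tox RV replicate 2 *Slc2a1* was still the more abundant, at 80.4 TPM against 55.2 TPM for *Slc2a3*. *Slc2a3* lies on the minus strand at chr6:122727809-122802363 and *Slc2a1* on the plus strand at chr4:119108745-119137330 (RefSeq positions on GRCm38.p6).

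The hexokinases, which trap glucose in the cell as glucose 6-phosphate, had different patterns across the libraries. *Hk1*, the housekeeping form, was at 120.3 and 122 CPM in the controls and 168 and 156 CPM with Tox RV. The libraries of each group were close, and the groups did not overlap. Its log2 fold change was 0.42 ± 0.16 (interval 0.02 to 0.81, unadjusted p = 0.0419, adjusted p = 0.897), and 0.35 to 0.47 with 1 library left out at a time. *Hk2*, the form induced on T cell activation whose promoter is printed above, was at 89.7 and 246 CPM in the controls and 237 and 205 CPM with Tox RV. It was low in EV RV replicate 1 and alike in the other 3 libraries, so that the log2 difference between the EV RV replicates, -1.45, was far larger than the fold change between groups of 0.40 ± 0.45 (interval -0.72 to 1.51). The fold change of *Hk2* was -0.16 without EV RV replicate 1 and 1.30 without EV RV replicate 2, and in that last fit it was the single gene of the set with an adjusted p below 0.05 (0.0393), among 393 of all genes tested.

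The other steps from glucose 6-phosphate to triose phosphates all had fold changes above 0 with all libraries. *Gpi1*, which isomerizes glucose 6-phosphate to fructose 6-phosphate, was at 672 and 581 CPM in the controls and 747 and 704 CPM with Tox RV. Its groups did not overlap, EV RV replicate 1 was the higher of the controls, and the log2 fold change was 0.21 ± 0.17, or 0.31 without EV RV replicate 1. Phosphofructokinase, the rate-controlling step, was represented by its platelet (*Pfkp*), liver (*Pfkl*) and muscle (*Pfkm*) subunits, with log2 fold changes of 0.09, 0.41 and 0.17, which were -0.02, 0.15 and 0.01 without EV RV replicate 1. Of these *Pfkl* differed most, at 107 and 157 CPM in the controls and 147 and 203 CPM with Tox RV, and the spread within each group was as wide as the difference between them. *Aldoa*, the main aldolase, was at 1469 and 1852 CPM in the controls and 2139.6 and 2135 CPM with Tox RV. The Tox RV replicates were equal to within 0.00312 on the log2 scale, both were above both controls, and the fold change was 0.36 ± 0.18 (unadjusted p = 0.0881), or 0.20 without EV RV replicate 1. *Tpi1*, which interconverts the 2 triose phosphates, was at 263 and 517 CPM in the controls and 453 and 612 CPM with Tox RV. Its fold change of 0.45 ± 0.35 became 0.03 without EV RV replicate 1 and 1.02 without EV RV replicate 2, and *Aldoc* showed the same dependence with values of 0.27, 0.02 and 0.56. The 9 genes of this stretch summed to 2840.4 and 3482 TPM in the controls and 3732 and 3872 TPM with Tox RV. For 8 of the 9, EV RV replicate 1 was lowest, which held for 37.0% of all genes.

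*Pfkfb3* and *Pfkfb4* encode enzymes that make and remove fructose 2,6-bisphosphate, a strong activator of phosphofructokinase, and they ran opposite to most of the set in EV RV replicate 1. *Pfkfb3* was at 91.7 and 61.7 CPM in the controls and 68.7 and 65.7 CPM with Tox RV. This was high in EV RV replicate 1 and alike in the other 3 libraries. Its log2 fold change was -0.19 ± 0.23 with all libraries and 0.12 without EV RV replicate 1. *Pfkfb4* was far less abundant, at 4.20 and 2.88 CPM in the controls and 4.09 and 3.91 CPM with Tox RV, and its log2 fold change of 0.18 ± 0.29 became 0.47 without EV RV replicate 1.

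The steps from triose phosphates to pyruvate held the most abundant transcripts of the set, and their sum in TPM was nearly the same in every library, at 8974 and 8573 TPM in the controls and 8718 and 8842 TPM with Tox RV. In the deposited FPKM values the sum was 4822, 5512, 5838 and 6083, and in counts per effective length with TMM scaling 5370, 5399, 5670 and 5746, in the same order of libraries, so that it was level in TPM and lowest in EV RV replicate 1 on the other scales. The sums hid opposite differences in EV RV replicate 1. *Gapdh*, which oxidizes glyceraldehyde 3-phosphate and is often used as a reference gene, was at 3562 and 2501 CPM in the controls and 2723 and 2490.1 CPM with Tox RV. EV RV replicate 1 was the highest library by a log2 difference of 0.51 from EV RV replicate 2, and the other 3 were alike. *Pgk1*, which makes the first ATP of this stretch, was at 1391 and 1986 CPM in the controls and 2126 and 2076 CPM with Tox RV. *Pkm*, the pyruvate kinase of T cells, was at 1788 and 2602 CPM in the controls and 2623 and 2932 CPM with Tox RV, and *Eno1*, the main enolase, at 1060.5 and 1417 CPM in the controls and 1402 and 1618 CPM with Tox RV. In these 3 genes EV RV replicate 1 was lowest, with log2 differences from EV RV replicate 2 of -0.51, -0.54 and -0.42. The log2 fold changes of Tox RV over EV RV were -0.22 ± 0.21 for *Gapdh*, 0.32 ± 0.21 for *Pgk1*, 0.34 ± 0.22 for *Pkm* and 0.29 ± 0.20 for *Eno1*. Without EV RV replicate 1 they were 0.05, 0.08, 0.09 and 0.09, all smaller than the standard errors of the full fit. *Pgam1*, a phosphoglycerate mutase, ran likewise, at 0.16 and 0.04. *Gapdh* shared 16.2% of its 100-base windows with the listed copy *Gm12070*, and *Eno1* 20.3% with *Eno1b*, so the division of reads within these pairs is uncertain.

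The remaining enolases were minor. *Eno2*, the neuronal form, was at 1.02 and 0.854 CPM in the controls and 1.64 and 1.97 CPM with Tox RV, which is 43 and 65 counts against 104 and 102. Both Tox RV libraries were above both controls. The log2 fold change was 0.95 ± 0.34 (interval 0.11 to 1.78, unadjusted p = 0.0321, adjusted p = 0.897), and it ranged from 0.81 to 1.07 with 1 library left out at a time. In TPM it remained at 1.15 or less, so that *Eno2* was a very small part of the enolase transcripts in every library. *Eno3*, the muscle form, was at 22.9 and 28.5 CPM in the controls and 18.9 and 27.2 CPM with Tox RV. Its groups overlapped, and its log2 fold change of -0.16 ± 0.24 was -0.32 without EV RV replicate 1 and 0.01 without EV RV replicate 2.

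In the formation and export of lactate, 0 of 4 genes reached an unadjusted p-value below 0.05 (3.62% of all genes). The groups overlapped in all 4, as they did in 9047 of the 14143 genes tested. *Ldha*, the lactate dehydrogenase subunit that dominates in glycolytic cells and the gene whose promoter was densest in the core among those printed, was at 1035 and 1543 CPM in the controls and 1402 and 1529 CPM with Tox RV. It was low in EV RV replicate 1 and as high in EV RV replicate 2 as in Tox RV replicate 2. Tox RV over EV RV gave a log2 fold change of 0.19 ± 0.23 (interval -0.38 to 0.75), and -0.08 without EV RV replicate 1. *Ldhb*, the other subunit, was at 7.30 and 7.87 CPM in the controls and 7.26 and 7.92 CPM with Tox RV, level in all libraries. The exporters *Slc16a1* (MCT1) and *Slc16a3* (MCT4) had log2 fold changes of 0.31 ± 0.26 and 0.17 ± 0.32, which became 0.000227 and -0.14 without EV RV replicate 1. *Slc16a3* was at 66.1 and 105 CPM in the controls and 73.1 and 119 CPM with Tox RV. It split both groups by replicate, with both replicates 1 low and both replicates 2 high. Other genes of the set with both replicates 1 below both replicates 2 included *Ldha*, *Slc2a1*, *Pfkl*, *Tpi1*, *Pdk3* and *Me2*.

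For the entry of pyruvate into mitochondria and its oxidation, both Tox RV libraries were above both controls in 4 of 8 genes (18.6% of all genes). An unadjusted p-value below 0.05 was reached by 0 of 8 (3.62% of all genes). *Pdk1* encodes a kinase that switches pyruvate dehydrogenase off and so diverts pyruvate to lactate. It was at 41.5 and 53.5 CPM in the controls and 57.2 and 72.9 CPM with Tox RV. The gap between the groups was narrow beside the spread within Tox RV. Its log2 fold change was 0.45 ± 0.22 (unadjusted p = 0.0864), or 0.28 without EV RV replicate 1. The related kinases *Pdk3*, at 21.7 and 31.1 CPM in the controls and 24.1 and 32.6 CPM with Tox RV, and *Pdk2*, at 2.13 and 0.696 CPM in the controls and 1.22 and 0.809 CPM with Tox RV, overlapped between the groups. *Pdk2* had the widest standard error of the set, 0.60, and its log2 fold change went from -0.45 to 0.54 without EV RV replicate 1. The complex that the kinases act on was represented by *Pdha1* and *Pdhb*, the subunits of its first enzyme, and *Dlat*, its second enzyme. *Pdha1* was at 85.8 and 93.2 CPM in the controls and 112 and 111 CPM with Tox RV. The replicates of each group were close, the groups did not overlap, and the log2 fold change was 0.32 ± 0.16 (unadjusted p = 0.0987), or 0.25 without EV RV replicate 1. *Pdhb* and *Dlat* had log2 fold changes of 0.22 ± 0.18 and 0.23 ± 0.19, both 0.08 without EV RV replicate 1. *Mpc1* and *Mpc2*, the subunits of the mitochondrial pyruvate carrier, had values of 0.12 and 0.17, and of -0.25 and -0.03 without EV RV replicate 1. *Mpc1* was at 17.4 and 31.0 CPM in the controls and 24.5 and 28.0 CPM with Tox RV, with the controls on either side of both Tox RV libraries. *Pdha1* shares 16.1% of its exonic bases with *Map3k15* and *Mpc1* 23.1% with *4930506C21Rik* on the opposite strand, and without stated use of strand their reads cannot be told apart.

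Log2 fold changes of the 6 pentose phosphate genes were small, between -0.22 and 0.21. *G6pdx*, the first and rate-controlling enzyme and a source of NADPH, was at 35.9 and 33.1 CPM in the controls and 27.0 and 32.1 CPM with Tox RV. This was the single gene of the set with both Tox RV libraries below both controls, by a small margin over Tox RV replicate 2. Its log2 fold change was -0.22 ± 0.18 (interval -0.67 to 0.23, unadjusted p = 0.267), and it ranged from -0.35 to -0.11 with 1 library left out at a time. *Pgd*, which makes the second NADPH of the pathway, was at 87.7 and 82.0 CPM in the controls and 85.4 and 77.1 CPM with Tox RV, with a log2 fold change of -0.06 ± 0.17, or -0.02 without EV RV replicate 1. *Pgls*, the lactonase between them, was at 54.5 and 54.4 CPM in the controls and 54.8 and 56.7 CPM with Tox RV. All 4 values lay within a narrow range, and the log2 fold change was 0.03 ± 0.16, although the groups did not overlap. In the non-oxidative branch, which links ribose 5-phosphate back to glycolysis, *Tkt* was at 498 and 675 CPM in the controls and 642 and 711 CPM with Tox RV and had a log2 fold change of 0.21 ± 0.21. *Taldo1* and *Rpia* had log2 fold changes of 0.16 ± 0.19 and 0.17 ± 0.21. The 3 values of this branch were -0.00384, -0.01 and -0.05 without EV RV replicate 1. *Pgls* shares 20.6% of its exonic bases with *Fam129c*, and *G6pdx* 13.6% with *Ikbkg* on the opposite strand, and the reads in these overlaps are uncertain.

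*Gpd2*, the mitochondrial end of the glycerol phosphate shuttle that reoxidizes glycolytic NADH, was at 56.3 and 87.4 CPM in the controls and 70.7 and 65.4 CPM with Tox RV. Both Tox RV libraries lay between the controls, and the log2 fold change was -0.08 ± 0.25, or -0.37 without EV RV replicate 1. *Me2*, a mitochondrial malic enzyme that makes pyruvate from malate, was at 37.0 and 60.4 CPM in the controls and 52.3 and 69.6 CPM with Tox RV. Its log2 fold change of 0.32 ± 0.29 was 0.01 without EV RV replicate 1.

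Within steps served by more than one isoform, the share of each in the summed TPM of the step is a ratio inside 1 library and does not depend on the scaling between libraries. With 2 libraries against 2, the exact permutation test (two-sided) cannot give a p below 0.333, so no share can pass 0.05. Of the glucose transporter transcripts, *Slc2a3* held 37.4% and 30.4% in the controls and 50.4% and 40.7% with Tox RV, 11.7 percentage points more on average and without overlap (exact permutation p = 0.333). This difference was 6.79 points without Tox RV replicate 1 and 16.5 points without Tox RV replicate 2. Of the pyruvate dehydrogenase kinase transcripts, *Pdk1* held 39.3% and 38.2% in the controls and 45.4% and 44.5% with Tox RV, a difference of 6.26 points beside SDs of 0.74 points between the EV RV libraries and 0.64 points between the Tox RV libraries (exact permutation p = 0.333). *Pfkfb4* held 6.17% and 6.31% in the controls and 7.91% and 7.88% with Tox RV, and *Eno3* 2.57% and 2.41% in the controls and 1.62% and 2.01% with Tox RV, both without overlap. Of the hexokinase transcripts, *Hk2* held 35.7% and 60.0% in the controls and 51.2% and 49.5% with Tox RV, with EV RV replicate 1 and EV RV replicate 2 at the extremes. The dominant isoforms did not move out of a narrow range. *Ldha* held 99.1% to 99.3% of its step in all libraries, *Aldoa* 97.4% to 97.8% and *Eno1* 97.4% to 98.3%. Of the phosphofructokinase transcripts, *Pfkp* held 74.4% and 70.2% in the controls and 71.8% and 64.2% with Tox RV, and the groups overlapped.

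**Figure D5:**
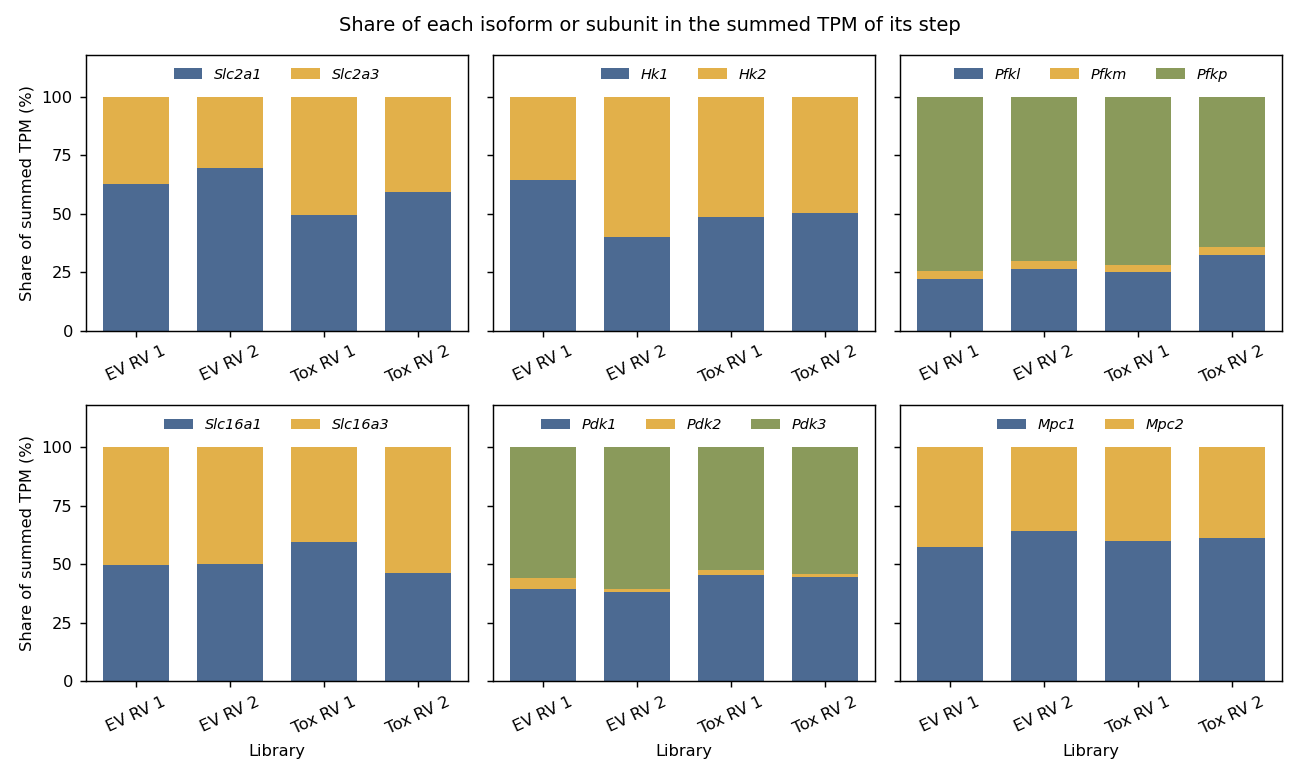
Bars give, for each library, the percentage of the summed TPM of a step held by each of its isoforms or subunits, for glucose transporters, hexokinases, phosphofructokinases, lactate exporters, pyruvate dehydrogenase kinases and the mitochondrial pyruvate carrier. The *Slc2a3* part is larger in both Tox RV libraries than in either EV RV library, and the *Hk2* part is smallest in EV RV replicate 1.

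Other genes of the same pathways gave 1 gene at an unadjusted p-value below 0.05. Of 83 further genes of glucose and lactate transport, glycolysis, pyruvate oxidation and the pentose phosphate pathway, 59 could be tested, and 0 passed an adjusted p-value below 0.05 in edgeR's quasi-likelihood test. At an unadjusted p-value below 0.05, 0 were higher (1.07% of all genes) and 1 was lower (2.55%), *Pck2*, a mitochondrial enzyme that makes phosphoenolpyruvate from oxaloacetate, while DESeq2 gave 0. *Pck2* was at 33.1 and 39.4 CPM in the controls and 25.6 and 26.9 CPM with Tox RV. The groups did not overlap, and the log2 fold change was -0.47 ± 0.18 (unadjusted p = 0.0432), or -0.59 without EV RV replicate 1. Both Tox RV libraries were above both controls in 15 of the 59 genes (25.4%, against 18.6% of all genes) and below them in 7 (17.4% of all genes), and the median log2 fold change was 0.05. In 27 of the 59, EV RV replicate 1 was the lowest library, which held for 37.0% of all genes.

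Of 19 known regulators of these genes, 17 could be tested, and 0 passed an adjusted p-value below 0.05 in edgeR's quasi-likelihood test. At an unadjusted p-value below 0.05, 2 of the 17 were lower in Tox RV (2.55% of all genes) and 0 were higher (1.07%). *Myc*, an activator of glycolytic genes in activated T cells, was at 226 and 166 CPM in the controls and 147 and 117 CPM with Tox RV. The 4 values did not overlap between groups, EV RV replicate 1 was highest, and the log2 fold change was -0.57 ± 0.23 (unadjusted p = 0.0472, adjusted p = 0.897), or -0.33 without EV RV replicate 1. *Hif3a*, a member of the hypoxia-inducible factor family, was low, at 5.31 and 3.94 CPM in the controls and 2.59 and 1.85 CPM with Tox RV. The groups did not overlap, and its log2 fold change was -1.05 ± 0.32 (unadjusted p = 0.0167), or -0.83 without EV RV replicate 1. DESeq2 also gave 2 of the regulators at an unadjusted p-value below 0.05 (4.21% of all genes), with a smallest adjusted p of 0.758. Both Tox RV libraries lay below both controls in 8 of the 17 genes, against 17.4% of all genes, and above them in 1, against 18.6%. The median log2 fold change was -0.295, which became -0.05 without EV RV replicate 1. *Hif1a*, the inducible subunit of HIF-1, was at 1078 and 1048 CPM in the controls and 1038 and 1038 CPM with Tox RV, with a log2 fold change of -0.03 ± 0.15.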

How the data were processed

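RNA from sorted GFP+ CD4 T cells was sequenced in 4 libraries, 2 per group, each assigned to its group and replicate number by its title. Per the methods, reads passed a quality check in fastqc, bowtie placed them on mm10 transcripts and RSEM gave a value per gene, and neither the tool versions nor any use of strand are given in the sources used here. The submitters' processing notes also name Bowtie2 and DESeq2. The deposited expected count of a gene is RSEM's estimate of its fragments, not normalized. The TPM values were computed by the authors with RSEM, per transcript length and scaled to 1000000 per library, and the deposited FPKM values are fragments per length and per 1000000 fragments from the same run. One more series-wide table was not used here.

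Rounded expected counts went into edgeR 4.0.16 (R 4.3.3). The filter filterByExpr with a minimum count of 10 left 14143 of 24369 genes. TMM set the scaling factors, and glmQLFit and glmQLFTest gave the comparison of the groups, with Benjamini-Hochberg adjustment over all tested genes. Standard errors come from the fold change and the F statistic, and intervals are 95%. CPM was used to compare libraries and TPM to compare genes. The total per library was between 46989997 and 74548723. For most genes with high counts, counting error was therefore small beside the differences between replicates. With 2 libraries per group these differences set the precision. Counting error was a larger part for genes with few counts, such as *Eno2* with 43 and 65 counts in the controls. Each quasi-likelihood p-value sets the difference between groups against the spread between these libraries, which the fit estimates partly from other genes. DESeq2 1.42.0, which the study names for this comparison, and limma 3.58.1 on log2(TPM + 1) and log2(TPM + 0.1) were alternatives, as were other scalings and filters, the replicate number as a block, sums over gene copies and leaving out each library. The edgeR, DESeq2 and limma log2(TPM + 1) fits were tested on simulated data. In these no library stood apart as EV RV replicate 1 did, so they do not show how the fits perform on the present libraries. All 40 genes are named in the text, with those other pathway genes and regulators that had an unadjusted p below 0.05. *Hif1a* was added after its values were seen. The genes of the set, the other lists and the tests were chosen with earlier results of these data known. Promoter sequences and gene positions were those of RefSeq (GRCm38.p6), and strands and exon overlaps came from the GENCODE annotation of the same build. The windows of 100 bases used to find copies were taken from its transcripts.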

Additional observations from a re-analysis of the deposited data

How the results depend on the processing

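Over all alternatives, 0 of the 40 genes passed an adjusted p below 0.05, except without EV RV replicate 2, where 1 did (*Hk2*), so the count ranged from 0 to 1 with 1 library left out. Over all genes tested the count was 0 with all libraries, 22 with no filter on low counts, 22 with DESeq2, and 1 (without EV RV replicate 1) to 393 (without EV RV replicate 2) with 1 library left out. At an unadjusted p below 0.05 the set had 3 genes (3.62% of all genes), 1 with DESeq2 (4.21%), and 0 (without Tox RV replicate 1, 2.29% of all genes) to 24 (without EV RV replicate 2, 29.4% of all genes) with 1 library left out. With the replicate number as a block, 16 of all genes passed an adjusted p below 0.05, and 6 of the set an unadjusted one (8.71% of all genes), while the log2 fold change of *Ldhb* was 0.000442. The labels do not say that a number marks a mouse or a day, and the log2 differences between replicates 1 and 2 correlated across genes by 0.302 between the groups over all genes and by 0.469 over the set, with only 2 pairs, so the block is not read as a pairing. The log2 ratio of the summed level of the set was 0.08 in TPM, 0.29 in FPKM and 0.165 in counts per effective length with TMM scaling, and the cause was not tested. The median log2 fold change of the set kept its sign under every alternative run. It fell from 0.185 to 0.0246 without EV RV replicate 1, where the median of all genes was 0.00166.

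With all libraries kept, signs turned for genes near 0. Scaled by library totals alone, *Ldhb* was at 0.12, *Pgd* at 0.06 and *Gpd2* at 0.02. *Ldhb* was at 0.01 with no filter, 0.000879 with an expected count of 10 in 2 libraries and 0.00101 with DESeq2, and *Pgls* was at -0.05 in both limma fits on log2(TPM + 1) and log2(TPM + 0.1). With 1 library left out, the log2 fold change of 19 genes took both signs, and the cause was not tested. Among them were *Hk2* and *Pdk2*, whose log2 fold changes with all libraries were 0.40 and -0.45. For uptake and the upper steps the ranges were -0.10 to 0.40 (*Slc2a1*), -0.16 to 1.30 (*Hk2*), -0.02 to 0.21 (*Pfkp*), -0.45 to 0.12 (*Pfkfb3*) and -0.07 to 0.47 (*Pfkfb4*). For the lower steps and lactate they were -0.45 to 0.05 (*Gapdh*), -0.45 to 0.07 (*Eno3*), -0.08 to 0.50 (*Ldha*), -0.06 to 0.06 (*Ldhb*) and -0.22 to 0.54 (*Slc16a3*). For pyruvate oxidation they were -1.07 to 0.54 (*Pdk2*), -0.14 to 0.38 (*Pdk3*), -0.25 to 0.59 (*Mpc1*) and -0.03 to 0.40 (*Mpc2*). For the pentose phosphate pathway and the shuttles they were -0.15 to 0.01 (*Pgd*), -0.00384 to 0.44 (*Tkt*), -0.01 to 0.35 (*Taldo1*), -0.05 to 0.43 (*Rpia*) and -0.37 to 0.27 (*Gpd2*). A group left with 1 library was assumed to vary like the other. Sums over gene copies and median-of-ratios scaling turned 0 signs.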
